A study of Mus musculus with 6 samples.

Results

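Lymphocyte genes were followed in bulk RNA sequencing of kidney from 24-month-old mice, in 3 libraries labelled fat-1 knockin (fat-1 here) and 3 libraries labelled WT. The set was a given list of 52 genes of T, NK, B and plasma cells and of leukocytes in general, matched by gene name to the deposited tables after transcript values were summed per gene identifier. Of the 52 genes, 47 were listed among 13696 genes in all, and 20 of them were among the 11698 genes tested, those that reached 1 FPKM in 3 or more libraries. FPKM is the number of fragments per length of transcript and per mapped fragments of the library, so levels can be set side by side between genes as levels per length. fat-1 is a nematode gene for a desaturase that makes omega-3 from omega-6 fatty acids, and the study asked what it does in aged kidney. The labels used here give tissue and genotype, and do not give sex, feeding, batch, the promoter behind the inserted gene, or whether each kidney is from a different animal. The p-values therefore cover only the spread between these samples, which may be technical. RNA of the inserted gene was not analysed here and gives no check of the labels.

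T cells recognise antigen through a receptor whose CD3 chains carry the signal to the kinases Lck and Zap70. NK cells and cytotoxic T cells kill target cells with granzymes and perforin, B cells signal through the CD79 chains of their receptor, and plasma cells secrete antibody, some of it joined by the J chain. In old kidneys, T and B cells are known to gather in aggregates organised by chemokines and lymphotoxin. Position in the tissue was not measured in these bulk data, so the genes are described as lymphocyte genes only, and in bulk RNA fewer cells of a type and less RNA per cell cannot be told apart.

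Proximal tubule genes, which mark the kidney cortex, were abundant in every library. Their summed level over 9 genes was between 9166 FPKM in WT replicate 1 and 20845 FPKM in WT replicate 3. Most of this sum was Kap, at 6307 FPKM in WT replicate 1 and 17239 FPKM in WT replicate 3. Other genes of the list differed less between these libraries, such as Slc34a1 (1135 and 1359 FPKM) and Lrp2 (107 and 120 FPKM). In fat-1 replicate 3, Slc5a2 was at 29.5 FPKM, against 70.3 to 115 FPKM elsewhere, while Aqp1 was highest there, at 327 FPKM. Of 8 distal nephron genes, 4 were highest in fat-1 replicate 3 and 3 in WT replicate 1, where 25.9% and 27.0% of all listed genes were. The part of nephron make-up in the lymphocyte values was not tested. WT replicate 1 stood apart from the other libraries over all genes: its correlations of log2(FPKM + 1) with the other 5, across genes that are not independent replicates, were between 0.938 and 0.942, and those among the other 5 were between 0.946 and 0.972. The sum over all listed genes was between 387488 FPKM in fat-1 replicate 3 and 431081 FPKM in WT replicate 3. Read counts were not used here, and with the depth unknown no interval for counting error is given.

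Of the 47 listed lymphocyte genes, 4 had their highest level in fat-1 replicate 3 and 43 in WT replicate 1, where 25.9% of all listed genes were highest in fat-1 replicate 3 and 27.0% in WT replicate 1. The 4 genes were the B cell genes Cd22, Cd79b and Ms4a1 and the costimulatory receptor gene Cd27. The median lymphocyte gene had 8.18%, 9.12% and 18.3% of its summed FPKM in fat-1 replicates 1, 2 and 3, and 47.7%, 5.40% and 9.82% in WT replicates 1, 2 and 3. A transcript was listed only if it reached 0.5 FPKM in some library, so a gene can owe its place to the library where it is high. Of the 47 genes, 37 would have been listed through another library, and 33 of these 37 were highest in WT replicate 1. The other 10, Cd247, Zap70, Cd28, Icos, Ctla4, Gzma, Gzmb, Prf1, Tbx21 and Ccr7, were listed through WT replicate 1 alone, so that it had to be their highest library. Among the 16 genes that reached 1 FPKM in 3 of the other 5 libraries, all 16 were highest there, against 24.6% of the 11475 genes that did so. Under other scalings between libraries the count was 42, 43 and 42 of 47.

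Among the 5 libraries other than WT replicate 1, fat-1 replicate 3 was highest for 36 of the 47 genes, against 38.2% of all listed genes. WT replicate 2 was the lowest of all 6 libraries for 28 of the 47, against 20.1% of all listed genes. The number of lymphocyte genes at 1 FPKM or more was 17, 15 and 26 in fat-1 replicates 1, 2 and 3, and 38, 13 and 19 in WT replicates 1, 2 and 3. Both groups thus held a library in which most lymphocyte genes were higher than in its companions, WT replicate 1 and fat-1 replicate 3. For the tested members, the comparison of genotypes below is given with and without them. The other lists are given with all 6 libraries unless stated. Among the fat-1 libraries, replicate 3 was highest for only 3 of the 8 listed NK and cytotoxic genes, and Jchain was highest in replicate 2.

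**Figure D1:**
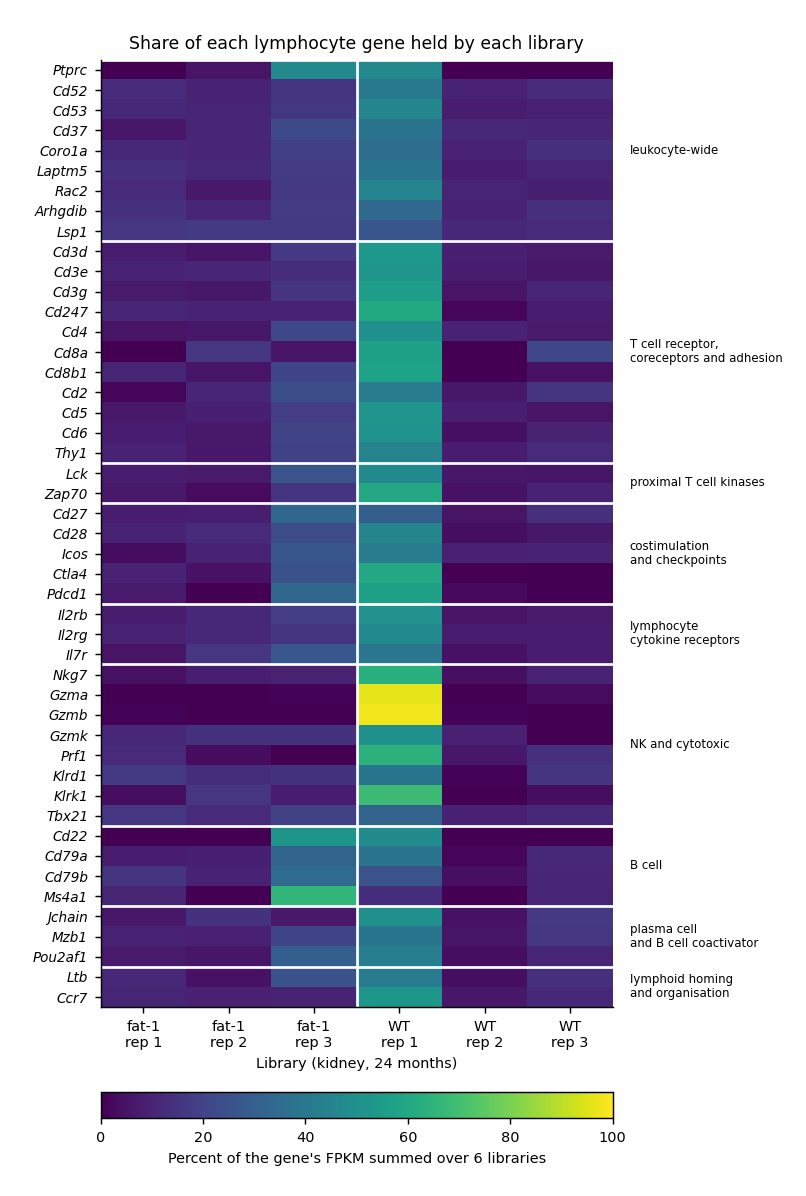
Share of each lymphocyte gene's FPKM, summed over the 6 libraries, that each library held, in percent; rows are the 47 listed genes in groups by role, columns are the 3 fat-1 and the 3 WT libraries, and brighter cells mark larger shares. The WT replicate 1 column is the brightest for 43 of 47 genes, and the B cell gene Ms4a1 is brightest in fat-1 replicate 3.

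The promoters of the members were searched for letters known as binding motifs of lymphocyte transcription factors. The search covered the 250 bases before each RefSeq gene start (GRCm38.p6), on both strands. RefSeq starts were matched for 31 of the 47 listed genes. The ETS letters AGGAAGT stood in 12 of the 31 (38.7%), in Ptprc, Cd37, Arhgdib, Cd3d, Cd3e, Cd247, Cd5, Lck, Il7r, Prf1, Tbx21 and Cd79a, and in 8.80% of 27025 genes. The RUNX letters TGTGGTT stood in 4 (12.9%), in Lck, Gzma, Gzmb and Klrk1, and in 5.08% of genes. The NF-kB letters GGACTTTCC stood in Ltb alone (3.23%) and in 0.333% of genes, and the octamer letters ATGCAAAT in 0 of the 31 and in 1.81% of genes. The 27025 genes were not limited to the genes listed in these data, so the shares do not compare like sets. A match is a description of the letters in that window and not a binding site. Any link between the letters and the levels across libraries was not tested. The stretches below show one motif each for genes whose levels are described further on, 5′ to 3′ along the strand of the gene, with the motif or its reverse complement in capitals. The Lck stretch also holds the RUNX letters, in lower case. RefSeq starts can differ from the gene bounds of the GENCODE M21 annotation. By those bounds Cd79a starts at 24897381 on the plus strand, and Ptprc at 138175708 on the minus strand. The Cd79a and Ptprc stretches thus lie inside the annotated gene, and the Cd3e and Ltb stretches partly so.
Cd3d, chr9:44981560-44981619, plus strand, ETS: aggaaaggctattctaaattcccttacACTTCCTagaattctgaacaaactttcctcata
Cd3e, chr9:45009612-45009671, minus strand, ETS: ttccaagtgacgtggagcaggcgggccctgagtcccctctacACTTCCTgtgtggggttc
Lck, chr4:129573642-129573701, minus strand, ETS: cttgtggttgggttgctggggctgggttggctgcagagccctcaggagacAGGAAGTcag
Prf1, chr10:61297700-61297759, plus strand, ETS: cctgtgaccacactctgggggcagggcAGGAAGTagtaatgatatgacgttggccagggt
Gzma, chr13:113101000-113101059, minus strand, RUNX: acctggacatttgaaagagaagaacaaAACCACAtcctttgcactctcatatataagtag
Gzmb, chr14:56262336-56262395, minus strand, RUNX: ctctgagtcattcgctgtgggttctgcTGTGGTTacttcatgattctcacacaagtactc
Cd79a, chr7:24897430-24897459, plus strand, ETS: gcacggctgaacAGGAAGTgaggcggagtt
Ptprc, chr1:138175331-138175390, minus strand, ETS: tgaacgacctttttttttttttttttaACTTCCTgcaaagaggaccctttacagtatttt
Ltb, chr17:35194394-35194453, plus strand, NF-kB: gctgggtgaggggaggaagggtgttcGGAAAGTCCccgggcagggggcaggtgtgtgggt

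Of the 4 signalling chains of the T cell receptor, 3 had the same pair of highest libraries. Cd3g, Cd3d and Cd3e lie side by side on chromosome 9 (GENCODE M21, GRCm38/mm10; 44969572 to 44980431, 44981786 to 44987339 and 44998740 to 45009627). Cd3g was at 1.70, 1.60 and 3.58 FPKM in fat-1 replicates 1, 2 and 3, and at 13.5, 1.24 and 2.47 FPKM in WT replicates 1, 2 and 3. Cd3e was at 0.816, 0.922 and 1.09 FPKM in fat-1, and at 4.49, 0.686 and 0.560 FPKM in WT, in the same order of replicates. Cd3d was at 0.505, 0.343 and 1.04 FPKM in fat-1, and at 3.29, 0.539 and 0.455 FPKM in WT. In all 3 genes WT replicate 1 was the highest library, fat-1 replicate 3 the next, and among the remaining libraries the groups overlapped for Cd3g and Cd3d. Cd247, which encodes the zeta chain, was at 0.276, 0.240 and 0.248 FPKM in fat-1, and at 1.55, 0.0482 and 0.199 FPKM in WT, with fat-1 replicate 3 between its companions. The constant region genes Trac, Trbc1 and Trbc2 were not among the listed genes, all of which are annotated as protein-coding, and were not analysed here.

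The coreceptor genes divide helper from cytotoxic T cells, and both kinds were measured. Cd4, of helper T cells and also of some macrophages, was at 0.218, 0.268 and 0.907 FPKM in fat-1, and at 2.11, 0.410 and 0.298 FPKM in WT. Cd8b1, of cytotoxic T cells, was at 0.545, 0.306 and 1.10 FPKM in fat-1, and at 3.07, 0 and 0.256 FPKM in WT. Its partner Cd8a was at 0.00637, 0.454 and 0.166 FPKM in fat-1, and at 1.66, 0 and 0.617 FPKM in WT. Both CD8 chains were listed at 0 in WT replicate 2 and were highest in WT replicate 1. The adhesion receptor gene Cd2 ranged between 0.0955 and 1.76 FPKM in fat-1 and between 0.480 and 3.12 FPKM in WT. The scavenger-type receptor genes Cd5 and Cd6 stayed at or under 0.538 FPKM in fat-1 and in WT replicates 2 and 3, against 1.54 and 1.26 FPKM in WT replicate 1. Thy1, which neurons and stromal cells also express, was at 1.81, 1.23 and 3.64 FPKM in fat-1, and at 8.44, 1.47 and 2.30 FPKM in WT.

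Genes of kinases and costimulatory receptors were at low levels. Lck, the kinase that starts T cell receptor signalling and whose ETS stretch is printed above, was at 0.744, 0.726 and 2.54 FPKM in fat-1, and at 4.78, 0.635 and 0.554 FPKM in WT. Zap70, the kinase recruited to the phosphorylated chains, was at 0.209, 0.0880 and 0.476 FPKM in fat-1, and at 1.85, 0.153 and 0.287 FPKM in WT. The costimulatory genes Cd28 and Icos and the checkpoint genes Ctla4 and Pdcd1 stayed under 1 FPKM in every library and were highest in WT replicate 1, between 0.734 and 0.964 FPKM. Of these genes Zap70, Cd28, Icos and Ctla4 were listed through WT replicate 1 alone, so that it had to be their highest library. Cd27 was highest in fat-1 replicate 3, at 0.836 FPKM, with 0.751 FPKM in WT replicate 1. Ctla4, an inhibitory receptor of regulatory and activated T cells, was at 0.154, 0.0749 and 0.405 FPKM in fat-1, and at 0.964, 0 and 0 FPKM in WT. The exact zeros of such low genes can be failed estimates, so they are given only as listed.

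Cytokine receptor chains of lymphocytes were led by Il2rg, the common gamma chain (X chromosome, 101264378 to 101268255). Il2rg was at 3.61, 4.25 and 5.65 FPKM in fat-1, and at 17.6, 2.77 and 2.98 FPKM in WT. The 3 fat-1 libraries lay above WT replicates 2 and 3 and below WT replicate 1. Il2rb, the beta chain shared by the IL-2 and IL-15 receptors, was at 0.395, 0.575 and 0.952 FPKM in fat-1, and at 2.63, 0.280 and 0.365 FPKM in WT. Il7r, the receptor that naive and memory T cells need to survive, was at 0.213, 0.649 and 1.12 FPKM in fat-1, and at 1.64, 0.206 and 0.321 FPKM in WT.

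Of the 4 cytotoxic effector genes, Gzma, Gzmb and Prf1 were listed through WT replicate 1 alone, and Gzmk would have been listed without it. Gzma, the granzyme A gene (chromosome 13, 113093825 to 113100981), was at 0, 0 and 0.140 FPKM in fat-1, and at 15.5, 0 and 0.473 FPKM in WT. Gzmb, the granzyme B gene (chromosome 14, 56258838 to 56262260), was at 0.105, 0 and 0 FPKM in fat-1, and at 11.3, 0.129 and 0 FPKM in WT. Outside WT replicate 1 both genes were near or at 0 in every library of either group. Granzyme genes belong to a family of related copies, and the way shared reads were assigned to them is not stated in the sources used here. Prf1, the perforin gene that opens the target membrane, was lower, at 0.121, 0.0333 and 0 FPKM in fat-1, and at 0.647, 0.0654 and 0.138 FPKM in WT. Gzmk, a granzyme of memory-type T cells, was at 0.414, 0.548 and 0.541 FPKM in fat-1, and at 1.87, 0.344 and 0 FPKM in WT.

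Summed over Gzma, Gzmb, Gzmk and Prf1, the cytotoxic effector genes reached 0.640, 0.581 and 0.681 FPKM in fat-1, and 29.3, 0.538 and 0.610 FPKM in WT. Divided by the summed CD3 chains of the same library (Cd3d, Cd3e, Cd3g and Cd247), this gave 0.194, 0.187 and 0.114 in fat-1, and 1.28, 0.214 and 0.166 in WT. The sum in WT replicate 1 was made mostly of Gzma and Gzmb, whose place in the tables depended on that library, so these sums and ratios are a description and its high value is no finding. Nkg7, a granule membrane gene of NK and cytotoxic T cells, was at 1.02, 1.85 and 2.06 FPKM in fat-1, and at 13.9, 0.880 and 2.14 FPKM in WT. Klrk1, the NKG2D receptor gene, was at 0.220, 0.951 and 0.486 FPKM in fat-1, and at 4.13, 0.00817 and 0.217 FPKM in WT. Klrd1, the CD94 receptor gene, was at 1.12, 0.870 and 0.974 FPKM in fat-1, and at 2.58, 0.0604 and 1.04 FPKM in WT. For both receptor genes all 3 fat-1 libraries lay between WT replicate 2, the lowest, and WT replicate 1, the highest. Tbx21, the T-bet gene of type 1 lymphocytes, was at 0.256, 0.198 and 0.319 FPKM in fat-1, and at 0.521, 0.148 and 0.188 FPKM in WT. Eomes, a related transcription factor gene, was not among the listed genes.

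**Figure D2:**
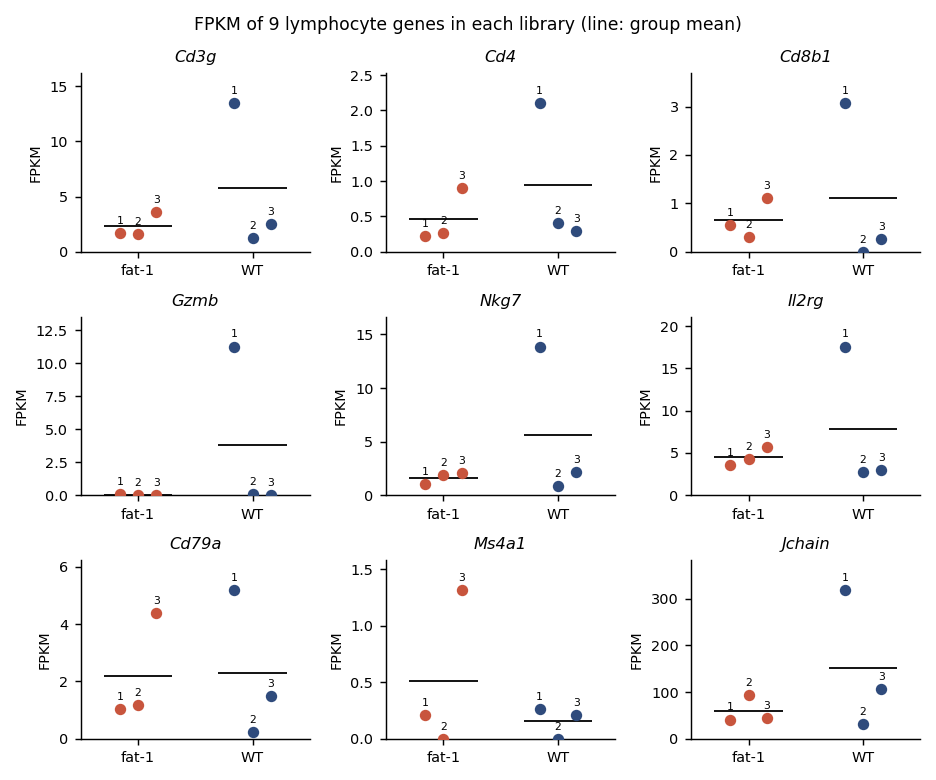
FPKM of 9 lymphocyte genes in each library (points, numbered by replicate) with the group mean (line), for 3 fat-1 and 3 WT libraries; each panel has its own linear axis starting at 0. WT replicate 1 is the highest point in every panel except Ms4a1, where fat-1 replicate 3 is highest at 1.32 FPKM.

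B cell genes differed in which library was highest, WT replicate 1 for Cd79a and fat-1 replicate 3 for Cd79b, Ms4a1 and Cd22. Cd79a, a signalling chain of the B cell receptor (chromosome 7, 24897381 to 24902197), was at 1.03, 1.17 and 4.38 FPKM in fat-1, and at 5.19, 0.248 and 1.50 FPKM in WT. Its partner Cd79b (chromosome 11, 106311341 to 106314762) was at 1.22, 0.770 and 2.87 FPKM in fat-1, and at 2.11, 0.325 and 0.891 FPKM in WT. Ms4a1, which encodes CD20, was at 0.213, 0 and 1.32 FPKM in fat-1, and at 0.263, 0 and 0.209 FPKM in WT. For Ms4a1, fat-1 replicate 3 alone exceeded 1 FPKM, while WT replicate 1 lay near fat-1 replicate 1 and WT replicate 3. Cd22, an inhibitory coreceptor of B cells, was at 0, 0 and 0.884 FPKM in fat-1, and at 0.823, 0 and 0 FPKM in WT.

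The balance of T and B cell genes differed between WT replicate 1 and fat-1 replicate 3. The CD3 chains summed to 3.29, 3.10 and 5.95 FPKM in fat-1, and to 22.8, 2.52 and 3.68 FPKM in WT. The CD79 chains summed to 2.24, 1.94 and 7.25 FPKM in fat-1, and to 7.30, 0.573 and 2.39 FPKM in WT. The CD79 sums of fat-1 replicate 3 and WT replicate 1 were therefore close, while their CD3 sums were not. The ratio of CD3 to CD79 was 1.47, 1.60 and 0.821 in fat-1, and 3.13, 4.39 and 1.54 in WT, so fat-1 replicate 3 was the only library with less CD3 than CD79. Set as fat-1 replicate 3 against WT replicate 1, the 4 NK and cytotoxic genes that did not owe their listing to WT replicate 1 (Gzmk, Nkg7, Klrk1 and Klrd1) were lower in fat-1 replicate 3, and 3 of the 4 B cell genes were higher there. The ratio of WT replicate 1 to fat-1 replicate 3 had a median of 5.09 over the 6 NK and cytotoxic genes above 0 in both, 2.87 over the 11 receptor, coreceptor and adhesion genes, 1.97 over the 9 leukocyte-wide genes and 0.833 over the 4 B cell genes. Gzma, Tbx21 and Cd247 entered these medians though listed through WT replicate 1 alone. These are 2 single libraries, so the ratios have no replicate check.

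**Figure D3:**
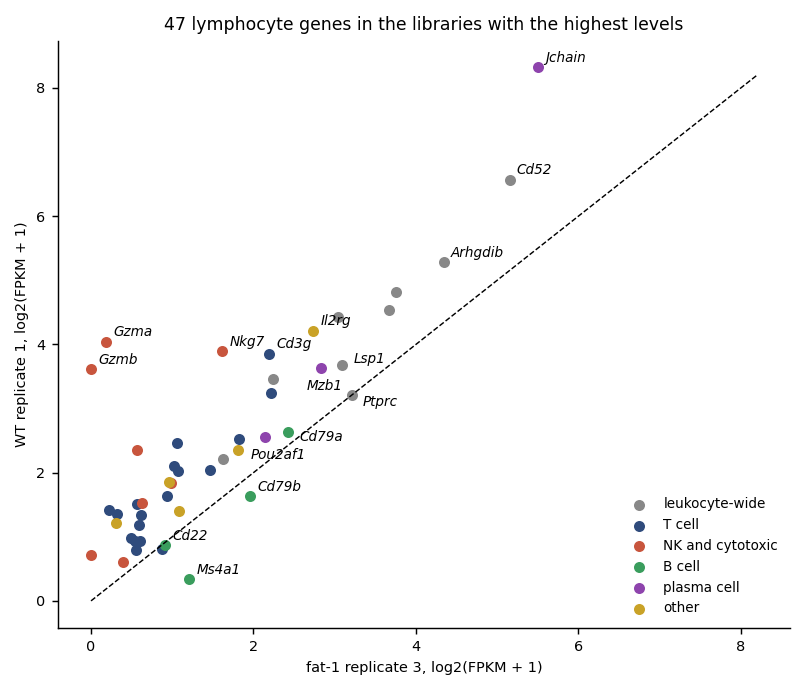
Level of each of the 47 listed lymphocyte genes in fat-1 replicate 3 (horizontal axis) and in WT replicate 1 (vertical axis), both as log2(FPKM + 1), coloured by role; the dashed line marks equal levels. Gzma and Gzmb, listed through WT replicate 1 alone, lie far above the line, and Cd79b, Cd22, Ms4a1 and Cd27 lie at or below it.

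The plasma cell gene Jchain was the most abundant of the set in every library. Jchain, the joining chain of polymeric antibody (chromosome 5, 88519809 to 88527891), was at 41.2, 93.1 and 44.2 FPKM in fat-1, and at 319, 30.7 and 106 FPKM in WT. WT replicate 1 was highest, but the next were WT replicate 3 and fat-1 replicate 2, and fat-1 replicate 3 lay near fat-1 replicate 1. The ratio of Jchain to the CD79 chains was 18.4, 47.9 and 6.10 in fat-1, and 43.7, 53.6 and 44.4 in WT, lowest in fat-1 replicate 3. Mzb1, a chaperone of antibody-secreting and marginal zone B cells, was at 2.88, 2.67 and 6.14 FPKM in fat-1, and at 11.3, 1.65 and 4.62 FPKM in WT. Pou2af1, the B cell coactivator that acts with octamer-binding factors, was at 0.823, 0.681 and 3.41 FPKM in fat-1, and at 4.86, 0.437 and 1.18 FPKM in WT, with the same 3 highest libraries as Cd79a. Antibody constant region genes (Ighm, Ighd, Igkc, Igha, Ighg2b and Ighg2c) were not among the listed genes.

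Lymphoid homing genes were measured at low levels. Ltb, which encodes lymphotoxin beta and carries the NF-kB letters printed above, was at 1.11, 0.484 and 2.51 FPKM in fat-1, and at 4.10, 0.383 and 1.33 FPKM in WT. Ccr7, the receptor that leads T cells and dendritic cells towards lymphoid tissue, was at 0.259, 0.233 and 0.240 FPKM in fat-1, and at 1.32, 0.156 and 0.289 FPKM in WT. The 3 fat-1 levels of Ccr7 were nearly equal, unlike those of Ltb, whose highest fat-1 level was in replicate 3. Cxcr5, the receptor that guides B cells into follicles, was not among the listed genes.

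Leukocyte-wide genes, which macrophages and other leukocytes also express, gave the highest levels after Jchain. Cd52, a small surface glycoprotein gene, was at 29.0, 22.8 and 34.6 FPKM in fat-1, and at 93.9, 21.7 and 29.7 FPKM in WT. Coro1a, an actin regulator of blood cells, was at 6.96, 6.65 and 11.7 FPKM in fat-1, and at 22.3, 6.04 and 8.35 FPKM in WT. Lsp1, an actin-binding protein of leukocytes, was the most even of these, at 7.01, 7.45 and 7.54 FPKM in fat-1, and at 11.8, 5.15 and 5.18 FPKM in WT. Cd53, Cd37, Laptm5, Rac2 and Arhgdib were likewise highest in WT replicate 1, between 3.64 FPKM for Cd37 and 38.0 FPKM for Arhgdib, and next highest in fat-1 replicate 3.

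Ptprc, which encodes the leukocyte phosphatase CD45, was listed at 0.0399, 0.906 and 8.26 FPKM in fat-1, and at 8.27, 0.0206 and 0.0234 FPKM in WT. This pattern was unlike that of the other leukocyte-wide genes, which were at 0.597 FPKM or more in all 6 libraries. Its transcripts were also unevenly listed. Ptprc-203, with 29 coding exons, was at 0, 0.906 and 2.39 FPKM in fat-1, and at 6.997, 0.00895 and 0.0112 FPKM in WT. Ptprc-204, with 28 coding exons, was at 5.52 FPKM in fat-1 replicate 3 and listed at 0 in the other 5 libraries. CD45 isoforms are known to differ by alternative exons in the extracellular part. The assignment of reads to transcripts sets such values, transcripts below the listing limit were not analysed here, and the part of either in the near-absence of Ptprc from 3 libraries was not tested.

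In the comparison of genotypes, 0 of the 20 tested lymphocyte genes had an adjusted p under 0.05 in limma (Benjamini-Hochberg over 11698 genes), where 0.180% of all tested genes did. At an unadjusted p under 0.05 the count was also 0, against 9.97% of all tested genes. The adjusted p of the 20 genes was between 0.844 and 0.999. The groups overlapped in all 20, where they did not overlap in 15.2% of all tested genes. The log2(FPKM + 1) of WT was subtracted from that of fat-1, and of these differences 4 were positive and 16 negative, where 51.2% of all tested genes were positive. They lay between -0.86 for Jchain and 0.32 for Cd79b, with a median of -0.27, where the median of all tested genes was 0.01.

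Examples show the width of the error. Il2rg averaged 4.50 ± 1.05 FPKM in fat-1 and 7.78 ± 8.50 FPKM in WT (SD, n = 3 each), and its log2 difference was -0.26 ± 0.61 (SE) with a 95% interval of -1.72 to 1.19. Cd3g averaged 2.29 ± 1.12 FPKM in fat-1 and 5.73 ± 6.74 FPKM in WT, a log2 difference of -0.60 ± 0.68 with an interval of -2.22 to 1.01. Jchain averaged 59.5 ± 29.1 FPKM in fat-1 and 152 ± 149 FPKM in WT, a log2 difference of -0.86 ± 0.80 with an interval of -2.79 to 1.06. In these genes the SD in WT was about as large as the mean, and the intervals hold differences in either direction. Cd79b averaged 1.62 ± 1.11 FPKM in fat-1 and 1.11 ± 0.912 FPKM in WT, a log2 difference of 0.32 ± 0.41 with an interval of -0.64 to 1.29.

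Leaving out WT replicate 1 turned the direction of most differences, and 0 of the 20 genes passed the adjusted threshold, which 0.222% of all tested genes did. Of the 20 genes, 18 were then positive and 2 negative (Cd2 and Jchain), where 58.0% of all tested genes were positive, with a median of 0.26 against 0.05 over all tested genes. In 4 of them, Cd53, Laptm5, Lsp1 and Il2rg, every fat-1 library lay above both remaining WT libraries, where 20.6% of all tested genes showed this. Lsp1, at a log2 difference of 0.43 ± 0.14 (SE), was the only 1 with an unadjusted p under 0.05 in limma, and its adjusted p was 0.254; 13.7% of all tested genes passed that unadjusted threshold. Il2rg was then at 0.49 ± 0.20, with an interval of -0.0044 to 0.99, and Laptm5, a lysosomal membrane protein gene of blood cells, at 0.52 ± 0.22, with an interval of -0.02 to 1.06. With WT replicate 1 and fat-1 replicate 3 both left out, an alternative chosen after seeing the data, 10 differences were positive and 10 negative (52.2% of all tested genes were positive), and the median was 0.00. The same 4 genes then lay higher in fat-1 with no overlap, as did 24.1% of all tested genes. Of the 20, 0 passed the adjusted threshold and 1 had an unadjusted p under 0.05 in limma, where 0.00% and 12.5% of all tested genes did. The median of the 20 genes was -0.66 without WT replicate 2, -0.49 without WT replicate 3, and -0.15, -0.17 and -0.57 without fat-1 replicates 1, 2 and 3.

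**Figure D4:**
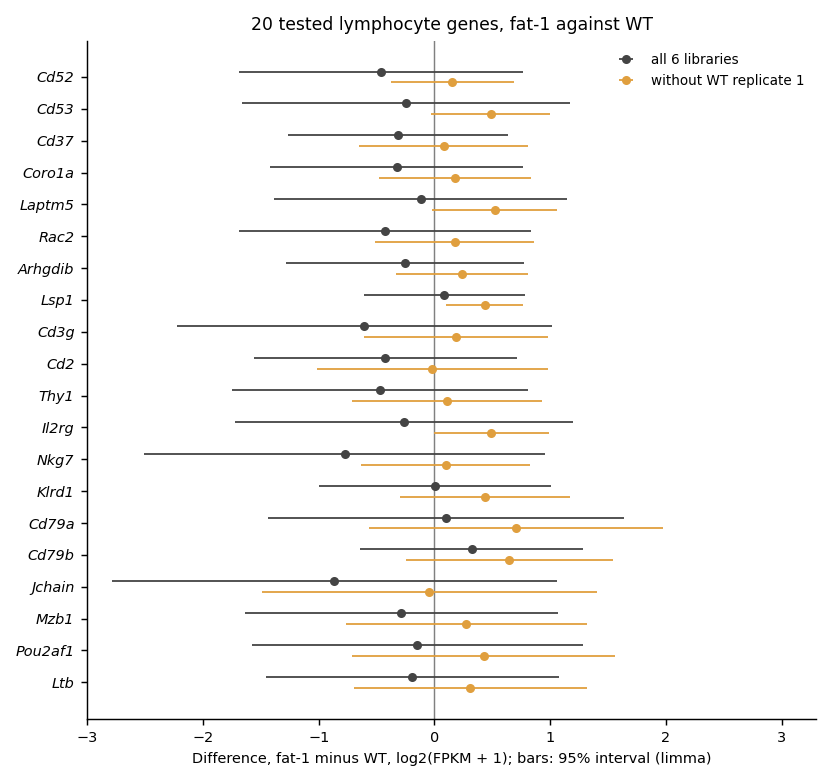
Difference in log2(FPKM + 1) of each of the 20 tested lymphocyte genes, fat-1 minus WT (points) with limma's 95% interval (lines), with all 6 libraries (dark) and without WT replicate 1 (orange). With all 6 libraries every interval spans 0 and 16 of 20 points lie below it; without WT replicate 1, 18 of 20 lie above it.

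By role, the median difference was -0.29 over 8 tested leukocyte-wide genes, -0.47 over 3 T cell genes (Cd3g, Cd2 and Thy1), -0.38 over 2 NK and cytotoxic genes (Nkg7 and Klrd1) and -0.15 over 5 B and plasma cell genes. Without WT replicate 1 these medians, in the same order of roles, were 0.21, 0.11, 0.27 and 0.43. Without WT replicate 1 and fat-1 replicate 3 they were 0.05, -0.19, 0.21 and 0.11, so the T cell median was again negative. Genes such as Gzma, Gzmb, Lck, Cd4 and Ms4a1 did not reach 1 FPKM in 3 libraries and were not tested. Of the 20 tested genes, 16 would have passed that filter without WT replicate 1.

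Other genes of T cells, in a list of 36 of which 31 were listed and 15 tested, had their highest levels in the same libraries: 6 of 31 were highest in fat-1 replicate 3 and 24 in WT replicate 1. None of the 15 passed the adjusted threshold in limma, and none had an unadjusted p under 0.05. Ccl5, a chemokine of cytotoxic T and NK cells, was at 7.92, 4.73 and 9.07 FPKM in fat-1, and at 133, 4.55 and 5.27 FPKM in WT. The chemokine receptor genes Cxcr3 and Cxcr6 stayed at or under 1.45 FPKM in fat-1 and in WT replicates 2 and 3, against 3.53 and 6.06 FPKM in WT replicate 1. Ets1, a factor of the family whose letters were searched, had another order, at 7.71, 9.22 and 3.82 FPKM in fat-1, and at 2.08, 3.82 and 4.73 FPKM in WT (log2 difference 0.78 ± 0.35, adjusted p = 0.542 in limma); it is also expressed by endothelium.

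Other B cell genes were split between both libraries: of 13 listed, 6 were highest in fat-1 replicate 3 and 7 in WT replicate 1. Fcer2a, the CD23 gene, was at 0.173, 0.0507 and 0.626 FPKM in fat-1, and at 0.0151, 0 and 0 FPKM in WT. Spib, a transcription factor gene of B cells and plasmacytoid dendritic cells, was at 0.201, 0.150 and 1.06 FPKM in fat-1, and at 0.307, 0.0597 and 0.0983 FPKM in WT. Both genes, like Ms4a1, were highest in fat-1 replicate 3, but Cd72 and Cd180, which macrophages also express, were highest in WT replicate 1, at 13.0 and 5.06 FPKM. None of the 6 tested genes of this list passed the adjusted threshold in limma, and none had an unadjusted p under 0.05. Of 7 listed plasma cell genes outside the set, 5 (Prdm1, Irf4, Tnfrsf17, Sdc1 and Txndc5) were highest in WT replicate 1. Of all listed genes, 27.0% were. Tnfrsf17 was under 0.5 FPKM in every other library, so WT replicate 1 had to be its highest. Irf4 was at 0.223, 0.381 and 0.856 FPKM in fat-1, and at 1.41, 0.242 and 0.331 FPKM in WT. Derl3 and Xbp1 were highest in fat-1 replicate 2. Xbp1, which tubule cells express too, was even across libraries, between 55.3 and 78.2 FPKM.

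Genes of lymphoid tissue organisation were partly listed. Cxcl13, the chemokine that draws B cells into follicles, was at 1.94, 2.48 and 1.52 FPKM in fat-1, and at 9.56, 1.04 and 1.32 FPKM in WT. Cxcl9, an interferon-gamma-induced chemokine that draws T cells, was at 0.509, 0.555 and 0.630 FPKM in fat-1, and at 42.7, 0.951 and 0.973 FPKM in WT. Glycam1, a ligand made by high endothelial venules, was at 1.22 FPKM in fat-1 replicate 3 and listed at 0 in the other 5 libraries. Ccl19 and Ccl21a each stood under 2 gene identifiers, near-identical copies whose reads may have been divided, and all 4 were highest in WT replicate 1. Ccl21b also stood under 2, which differed in their highest library. They were at 1.51 and 2.66 FPKM in WT replicate 1, and at 1.18 and 2.86 FPKM in fat-1 replicate 3. Of the germinal centre genes, Rgs13 was not among the listed genes, nor were Cr2, Madcam1 and Fdcsp. Of the 5 listed, 4 were highest in WT replicate 1, Gcsam, S1pr2, Mybl1 and Fas, at 1.14, 0.818, 0.589 and 12.3 FPKM. Gcsam was under 0.5 FPKM in every other library, so WT replicate 1 had to be its highest. The other listed gene, Bcl6, a germinal centre factor with broad expression elsewhere, was highest in WT replicate 3, at 38.4 FPKM. None of the tested genes of these lists passed the adjusted threshold in limma, and none had an unadjusted p under 0.05.

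Macrophage genes moved with the lymphocyte genes. Of 14 listed, 13 were highest in WT replicate 1, and the list summed to 214, 152 and 275 FPKM in fat-1, and to 1107, 141 and 179 FPKM in WT. The ratio of this sum to the CD3 chains was 65.0, 49.0 and 46.2 in fat-1, and 48.5, 56.0 and 48.6 in WT, so WT replicate 1 was within the range of the other libraries. None of the 14 passed the adjusted threshold in limma, none had an unadjusted p under 0.05, and Cd163 was not among the listed genes. Cell division genes were highest in WT replicate 1 for 9 of 10, with a summed level of 4.70, 2.23 and 4.85 FPKM in fat-1, and of 17.4, 10.3 and 8.91 FPKM in WT. Of the 3 tested, Birc5, Ccnb2 and Top2a, 0 passed the adjusted threshold in limma and 3 had an unadjusted p under 0.05. Over all tested genes these shares were 0.180% and 9.97%. Birc5 was at a log2 difference of -1.24 ± 0.27 (adjusted p = 0.159 in limma). Neutrophil genes summed to 25.2, 1.27 and 3.62 FPKM in fat-1, and to 54.5, 13.4 and 33.7 FPKM in WT. The part of these cells in the lymphocyte values was not tested. Erythrocyte genes, a sign of blood left in the tissue, summed to 540, 27.3 and 15.0 FPKM in fat-1, and to 242, 138 and 203 FPKM in WT. The sum was highest in fat-1 replicate 1 and next highest in WT replicate 1. Slc4a1, of the same list, was highest in fat-1 replicate 3, at 7.85 FPKM. The part of blood in the lymphocyte values was not tested. Of the lymphatic endothelium list, Lyve1 was not among the listed genes, and of 5 listed entries Flt4, Prox1 and Pdpn were highest in fat-1 replicate 3, at 3.07, 3.05 and 10.6 FPKM, and the 2 identifiers of Ccl21a in WT replicate 1, at 9.64 and 6.82 FPKM. Of the fat cell genes, only Adipoq was listed, at 1.84 FPKM or less. Glomerular and endothelial genes did not follow the lymphocyte genes: the median gene of that list had 18.1%, 23.0% and 23.5% of its summed FPKM in fat-1, and 12.3%, 10.05% and 12.1% in WT. Of its 8 tested genes, 8 had a positive difference and 8 an unadjusted p under 0.05 in limma, where 51.2% and 9.97% of all tested genes did. Only 1 passed the adjusted threshold, which 0.180% of all tested genes did. This was Plvap, an endothelial diaphragm gene, higher in fat-1 (log2 difference 1.25 ± 0.15, adjusted p = 0.0496 in limma). Without WT replicate 1 its adjusted p in limma was 0.0647. Without fat-1 replicate 1, or without fat-1 replicate 3, 0 of all tested genes passed.

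**Figure D5:**
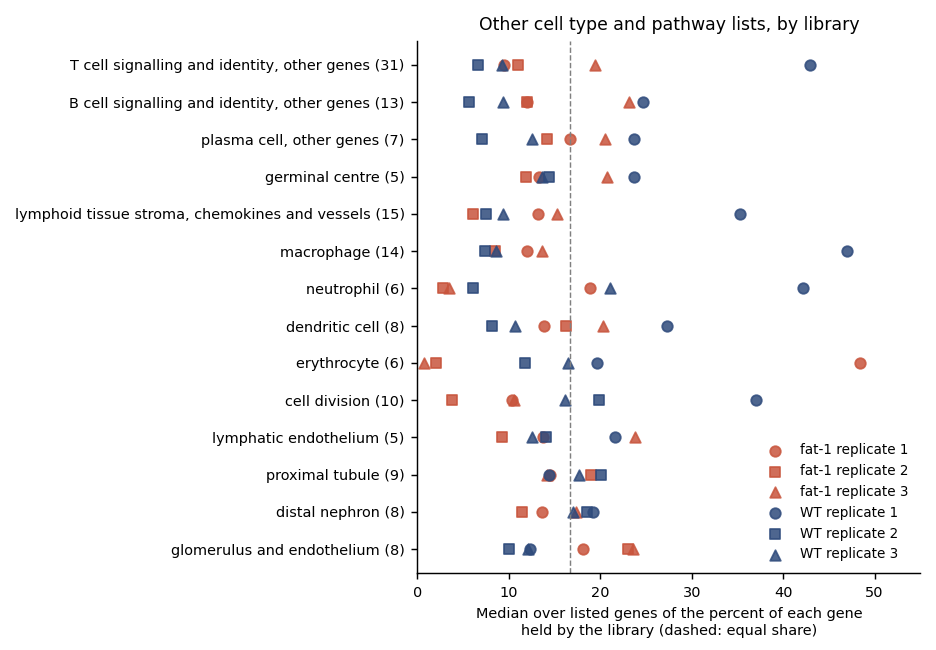
For 14 other gene lists (number of listed genes in brackets), the median over genes of the percent of each gene's summed FPKM held by each library; circles, squares and triangles are replicates 1, 2 and 3, orange for fat-1 and blue for WT, and the dashed line marks an equal share. WT replicate 1 stands far right for T cell and macrophage genes (42.9% and 47.0%), and fat-1 replicate 3 lies next to it for other B cell genes (23.1% and 24.7%).

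Outside the set, the 10 tested genes whose log2(FPKM + 1) followed the mean of the standardised members most closely over the 6 libraries were Antxr1, Vav1, Cd48, Gimap3, Tnfaip8l2, H2-T23, Zc3h7a, Serpina3g, Hvcn1 and H2-D1, with Pearson correlations between 0.987 and 0.997 as a description. The points of these correlations are the same 6 libraries, of which WT replicate 1 lies far from the others. H2-D1, a classical class I antigen-presenting gene, was at 131, 112 and 223 FPKM in fat-1, and at 595, 98.3 and 116 FPKM in WT. Vav1, a guanine nucleotide exchange factor of blood cells, was at 1.49, 1.63 and 2.92 FPKM in fat-1, and at 6.90, 0.911 and 1.49 FPKM in WT.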

How the data were processed

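Kidney RNA of 24-month-old mice was sequenced in 3 fat-1 and 3 WT libraries. The authors deposited FPKM per transcript, 27486 protein-coding transcripts that each reach 0.5 FPKM in some library. The submitters' processing notes name mm10 and the tools featureCounts 1.5.0-p3, HISAT2 2.0.5 and DESeq2 1.20.0. Which tool computed FPKM is not stated in the sources used here. Whole reads could not be recovered: between 20.7% and 25.8% of low values lay within 0.05 of a whole multiple of the best step, against 10% for evenly spread values.

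FPKM were summed per gene identifier (13696 genes). limma 3.58.1 in R 4.3.3 compared the groups on log2(FPKM + 1), which understates changes of low genes, with trend and robust estimation, for the 11698 genes that reached 1 FPKM in 3 or more libraries; p-values were adjusted by Benjamini-Hochberg over all of them. On simulated data the fit was tested with changes of known size. Sums, shares and plots used Python 3.11.15. Coordinates come from GENCODE M21 and promoters from RefSeq (GRCm38.p6). Alternatives covered pseudocount, filter, scaling, transcripts and left-out libraries.

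The members and lists were chosen with earlier results of these data known. Named genes were all members; in other lists, up to 4 with the smallest p and the defining genes; and the 10 most similar profiles. A few genes of the other lists (Cxcr3, Cxcr6, Cd72, Cd180, Glycam1) were named after their values were seen.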

Additional observations from a re-analysis of the deposited data

How the results depend on the processing

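No paired analysis was possible because the numbers in the titles of the fat-1 samples match none in those of the WT samples, and no label ties samples to a litter, batch or day; the replicate numbers used here only name the libraries. In every alternative run, 0 lymphocyte genes passed the adjusted threshold in limma. The count of all genes that passed, 21 as reported, was 4 with no filter, 42 with at least 5 FPKM in 3 libraries, 8 with trimmed mean of M values factors, 8 with median-of-ratios factors, 45 with every library rescaled to the same sum, 3 with the most abundant transcript, 0 with WT replicate 1 and fat-1 replicate 3 both left out (1461 at an unadjusted p under 0.05), and between 0 and 26 when 1 library was left out. With 1 library left out, the median difference was between -0.66 and 0.26 over lymphocyte genes, between -0.86 and 0.11 over T cell genes, between -0.92 and 0.27 over NK and cytotoxic genes, between -0.59 and 0.43 over B and plasma cell genes and between -0.64 and 0.21 over leukocyte-wide genes. The B and plasma cell median was 0.02 with no filter.

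Of the 20 tested lymphocyte genes, 18 changed sign when some 1 library was left out, all except Cd2 and Jchain, and 14 of them did so without WT replicate 1. The differences with 1 library, or WT replicate 1 and fat-1 replicate 3 together, left out lay between -0.61 and 0.24 for Arhgdib, -0.58 and 0.079 for Cd37, -1.16 and 0.19 for Cd3g, -0.88 and 0.15 for Cd52, -0.67 and 0.49 for Cd53, -0.45 and 0.70 for Cd79a, -0.0013 and 0.65 for Cd79b, -0.68 and 0.18 for Coro1a, -0.66 and 0.49 for Il2rg, -1.71 and 0.11 for Jchain, -0.44 and 0.44 for Klrd1, -0.52 and 0.52 for Laptm5, -0.094 and 0.43 for Lsp1, -0.63 and 0.31 for Ltb, -0.84 and 0.27 for Mzb1, -1.39 and 0.10 for Nkg7, -0.59 and 0.43 for Pou2af1, -0.77 and 0.17 for Rac2, and -0.86 and 0.11 for Thy1. With these 2 libraries left out together, an alternative chosen after seeing the data, 6 genes changed sign, Arhgdib (0.09), Cd52 (0.02), Cd53 (0.33), Il2rg (0.35), Jchain (0.11) and Laptm5 (0.35). No member changed sign under the other scalings, filters, pseudocount, variance estimation or transcript choice. The cause of these shifts was not tested.

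With 3 libraries in each group, 1 of them far from the rest, the intervals are wide. The depth is unknown, so levels near 0 cannot be told from absence.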
